A study of Mus musculus with 8 samples.

Results

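The 7 genes described here encode eosinophil products: the granule ribonucleases Ear1, Ear2 and Rnase2a, the eosinophil peroxidase Epx, the granule major basic proteins Prg2 and Prg3, and Il5ra, the alpha chain of the interleukin 5 receptor. They are 7 of 20660 mouse genes with a named probe on the array. The 7 were chosen by their measured levels on these same 8 arrays, so those levels are given as a description, with no test. Each gene had 1 probe on the array, and all 7 are accounted for below.

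The study profiled LSK cells (lineage-negative, Sca-1 and c-Kit positive marrow cells, the fraction that holds blood stem and early progenitor cells) from C57BL/6 mice transplanted with engineered marrow. Donor CD45.2 stem cells carried the inducible Cre-ERT recombinase with either normal (wt/wt) or flox/flox alleles of Ezh2, a histone methyltransferase of Polycomb complex 2. They were transduced with a retrovirus carrying RUNX1S291fs, a frameshift mutant of the blood transcription factor RUNX1, or with an empty control virus, and were given to lethally irradiated recipients beside CD45.1 wild-type marrow, and Ezh2 was deleted afterwards. The CD45.2 LSK cells taken at month 4 were WT (empty virus, Ezh2 intact), Ezh2Δ/Δ (empty virus), RUNX1S291fs (Ezh2 intact) and RUNX1S291fs/Ezh2Δ/Δ, called the double mutant below. CD45.1 wild-type competitor cells were sorted at month 4 from the marrow of RUNX1S291fs mice and from that of double-mutant mice. Double-mutant CD45.2 cells were also taken from single moribund double-mutant mice, 1 with myelodysplastic syndrome (MDS) and 1 with MDS and myeloid leukemia (MDS/ML). Each of these 8 groups was measured on 1 array; month 4 cells of the CD45.2 genotypes were pooled from 2 to 4 mice. RUNX1S291fs thus came from a retrovirus in addition to the cells' own Runx1, and the Ezh2 deletion depended on Cre-ERT in the transplanted cells.

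Eosinophils are granulocytes that arise from marrow progenitors under the control of GATA1, C/EBP and PU.1 factors, with interleukin 5 driving their growth and release through the receptor that Il5ra helps to form. Their granules hold cationic proteins: major basic protein and its homologue, a peroxidase that makes hypohalous acids, and ribonucleases of the RNase A family. In the mouse that ribonuclease group is a cluster of recently duplicated, near-identical genes, so the signal of any 1 Ear probe may come partly from its relatives, and the levels of Ear1, Ear2, Ear10 and Rnase2a are uncertain in that respect.

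The upstream sequences of the ribonucleases are shown because these genes had nearly the same pattern over the arrays, and those of Prg3 and Il5ra because they carry GATA matches. Each is the 250 bases before the gene's start in RefSeq's GRCm38.p6 build, printed along the gene's own strand; 6 of the 7 genes had an entry, and Prg2 had none. Capitals mark GATA matches (GATAA, or TTATC on the other strand) and C/EBP matches (TTGCNNAA on either strand). Ear1 lies at chr14:43819640-43819889 (minus strand), Ear2 at chr14:44102404-44102653 (plus), Rnase2a at chr14:51256113-51256362 (minus), Prg3 at chr2:84987965-84988214 (plus) and Il5ra at chr6:106749038-106749287 (minus); all 5 windows are upstream flanks, outside the transcripts.
Ear1: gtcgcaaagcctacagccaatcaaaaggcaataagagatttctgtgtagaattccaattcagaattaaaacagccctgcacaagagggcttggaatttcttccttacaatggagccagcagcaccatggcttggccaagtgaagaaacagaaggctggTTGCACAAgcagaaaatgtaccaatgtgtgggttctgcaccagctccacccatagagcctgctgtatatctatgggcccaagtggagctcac
Ear2: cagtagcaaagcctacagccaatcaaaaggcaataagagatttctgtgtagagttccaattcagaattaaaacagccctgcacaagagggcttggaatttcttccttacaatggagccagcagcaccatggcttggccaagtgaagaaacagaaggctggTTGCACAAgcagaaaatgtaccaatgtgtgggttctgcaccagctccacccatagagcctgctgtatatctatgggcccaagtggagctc
Rnase2a: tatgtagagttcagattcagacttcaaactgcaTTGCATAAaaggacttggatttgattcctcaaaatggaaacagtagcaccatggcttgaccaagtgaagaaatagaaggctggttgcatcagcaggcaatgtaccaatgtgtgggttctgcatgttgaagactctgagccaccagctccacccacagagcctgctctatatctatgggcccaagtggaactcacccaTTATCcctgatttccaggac
Prg3: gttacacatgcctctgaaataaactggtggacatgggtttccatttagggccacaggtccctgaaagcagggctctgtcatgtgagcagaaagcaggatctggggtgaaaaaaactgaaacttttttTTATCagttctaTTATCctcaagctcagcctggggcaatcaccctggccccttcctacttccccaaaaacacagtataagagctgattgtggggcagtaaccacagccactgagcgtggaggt
Il5ra: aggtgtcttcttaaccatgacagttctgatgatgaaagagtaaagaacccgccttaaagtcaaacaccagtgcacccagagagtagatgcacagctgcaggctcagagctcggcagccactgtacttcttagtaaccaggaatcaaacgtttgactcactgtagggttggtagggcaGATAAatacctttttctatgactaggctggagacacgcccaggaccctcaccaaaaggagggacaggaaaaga
The Ear1 and Ear2 flanks were identical at 97.6% of aligned positions, and Ear1 and Rnase2a at 61.6%, against 47.0% to 51.4% between flanks of the unrelated members and Ear genes. The C/EBP match TTGCACAA stands 92 bases before the Ear1 start and 90 bases before the Ear2 start, and Rnase2a carries TTGCATAA at 217 bases. Of the related ribonucleases whose flanks are not shown, Ear10 carries TTGCACAA at 94 bases and Ear6 has 0 C/EBP matches. Prg3 has GATA matches at 123 and 111 bases before its start, Il5ra at 73 and Rnase2a at 20. Of 32851 mouse promoters of this length, 22.6% held GATAA on either strand and 9.56% held TTGCNNAA. Each was found in 3 of the 6 member flanks. The C/EBP matches of Ear1 and Ear2 stand in near-identical flanks, so they are not separate finds. The Epx flank had 0 matches of either motif. TGTGGT, a core read by RUNX factors, was found in 14.0% of promoters and in 1 of the 6 (Prg3), and GAGGAAG, an ETS motif, in 10.6% and in 0 of the 6. The motifs were searched as letters only, with no binding data, and matches of different motifs may overlap.

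Levels are given on a log2 scale, as the processed signal relative to that array's 75th percentile, so that 0 equals the percentile and a step of 1 is a 2-fold difference; levels are compared between arrays for 1 gene, not between genes. Of the 56 member values, 53 were well above the scanner's background, and the 3 that were not were Epx, Prg3 and Il5ra on the MDS/ML array. Where well above background, the scanner's error estimate reached at most 18.2% of the signal, and was at most 11% for 44 of the 56. It covers the spot only, and with 1 array in each group no spread between mice can be given.

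Across the series, 43.9% to 55.3% of probes were well above background on an array, no probe was saturated, and repeat spots had a median SD of 0.0541 to 0.0675 on the log2 scale. The 8 arrays lay on 3 slides. WT, the double mutant and the MDS mouse shared slide 1; Ezh2Δ/Δ, RUNX1S291fs and both competitor arrays shared slide 2; the MDS/ML mouse was alone on slide 3, so that slide and that mouse cannot be told apart. Kit, the c-Kit receptor used in the sort, stayed between 4.06 and 5.11 on all 8 arrays. Ly6a, which encodes Sca-1, was between 3.17 and 4.14 on 6 arrays but 0.53 on the MDS array and 1.18 on the MDS/ML array. The 1 Ezh2 probe read 3.10 to 3.51 on the 4 arrays labelled Ezh2Δ/Δ and 3.40 to 4.01 on the other 4; whether that probe lies inside the floxed stretch is unknown here, so it checks nothing about the deletion, and the Ezh2 groups are named by their labels. In bulk RNA of this kind, fewer cells of a type and less RNA per cell cannot be told apart.

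Eosinophil identity beyond the 7 genes was mixed. Siglecf, the eosinophil sialic acid receptor, was well above background on 8 of 8 arrays, at -0.03 to 1.85. Ccr3, the eotaxin receptor, was well above background on 7 of 8, at -3.90 to -1.40 there, highest on Ezh2Δ/Δ. Alox15, a lipoxygenase of mature eosinophils, was well above background only on the MDS array, at -3.80.

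Ear1 was at -0.80 in WT, -0.81 in Ezh2Δ/Δ, 1.45 in RUNX1S291fs, 1.52 in the double mutant, 3.01 in the MDS mouse, -3.54 in the MDS/ML mouse, 0.34 in competitors from RUNX1S291fs marrow and -3.66 in competitors from double-mutant marrow. Both month 4 RUNX1S291fs arrays were above the 4 other month 4 arrays, and the MDS array was the highest of the 8. Ear2 ran the same way: 1.21 in WT, 1.20 in Ezh2Δ/Δ, 3.32 in RUNX1S291fs, 3.49 in the double mutant, 4.80 in MDS, -1.36 in MDS/ML, 2.11 in the RUNX1S291fs-marrow competitors and -2.0 in the double-mutant-marrow competitors. Rnase2a, an eosinophil-associated ribonuclease gene in the same family, read 0.10, 0.42, 2.15, 2.27, 3.60, -3.25, 1.32 and -2.95 on the arrays in that same order. The 3 ribonuclease genes shared the order of the 4 highest arrays: MDS, double mutant, RUNX1S291fs, then competitors from RUNX1S291fs marrow. The gap between the double mutant and RUNX1S291fs was 0.07 for Ear1, 0.17 for Ear2 and 0.12 for Rnase2a, smaller than the combined spot errors of the arrays (0.19 each).

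Epx, which encodes the peroxidase that defines the eosinophil granule, was at -1.25 in WT, -0.54 in Ezh2Δ/Δ, 0.45 in RUNX1S291fs, 1.09 in the double mutant, -0.13 in MDS, -0.11 in competitors from RUNX1S291fs marrow and -2.13 in those from double-mutant marrow, and was not well above background in MDS/ML. The double mutant was its highest array, 0.64 above RUNX1S291fs, which lies beyond the combined spot error of 0.19. The MDS array sat 1.22 below the double mutant for Epx, where the ribonucleases sat 1.31 to 1.49 above it.

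Prg2, the major basic protein precursor, was at 2.12 in WT, 3.02 in Ezh2Δ/Δ, 4.49 in RUNX1S291fs, 4.22 in the double mutant, 4.39 in MDS, -0.20 in MDS/ML, 2.68 in RUNX1S291fs-marrow competitors and 0.98 in double-mutant-marrow competitors. Its 3 highest arrays were the 3 from RUNX1S291fs carriers other than MDS/ML, within 0.27 of each other. Prg3, the homologue that neighbours Prg2 on chromosome 2, was at -2.23, -1.07, 0.00, 0.02 and -0.14 in WT, Ezh2Δ/Δ, RUNX1S291fs, the double mutant and MDS, at -1.24 and -3.73 in the competitors from RUNX1S291fs and double-mutant marrow, and not well above background in MDS/ML. Ezh2Δ/Δ was above WT by 0.90 for Prg2 and by 1.16 for Prg3, and Prg3 was the only member past 2-fold in that pair (0.88, inside 2-fold, with normexp background correction).

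Il5ra stood apart from the granule genes in its order. It was at -2.48 in WT, -3.32 in Ezh2Δ/Δ, 0.05 in RUNX1S291fs, -1.08 in the double mutant, -2.27 in MDS, -2.03 in competitors from RUNX1S291fs marrow and -2.17 in competitors from double-mutant marrow, and not well above background in MDS/ML. RUNX1S291fs was the highest array, 1.13 above the double mutant (0.87 under normexp), and the MDS array lay among the wild-type arrays. Over all 7 genes, 14 of the 49 gaps between neighbouring arrays in a gene's order were smaller than the combined spot error.

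**Figure D1:**
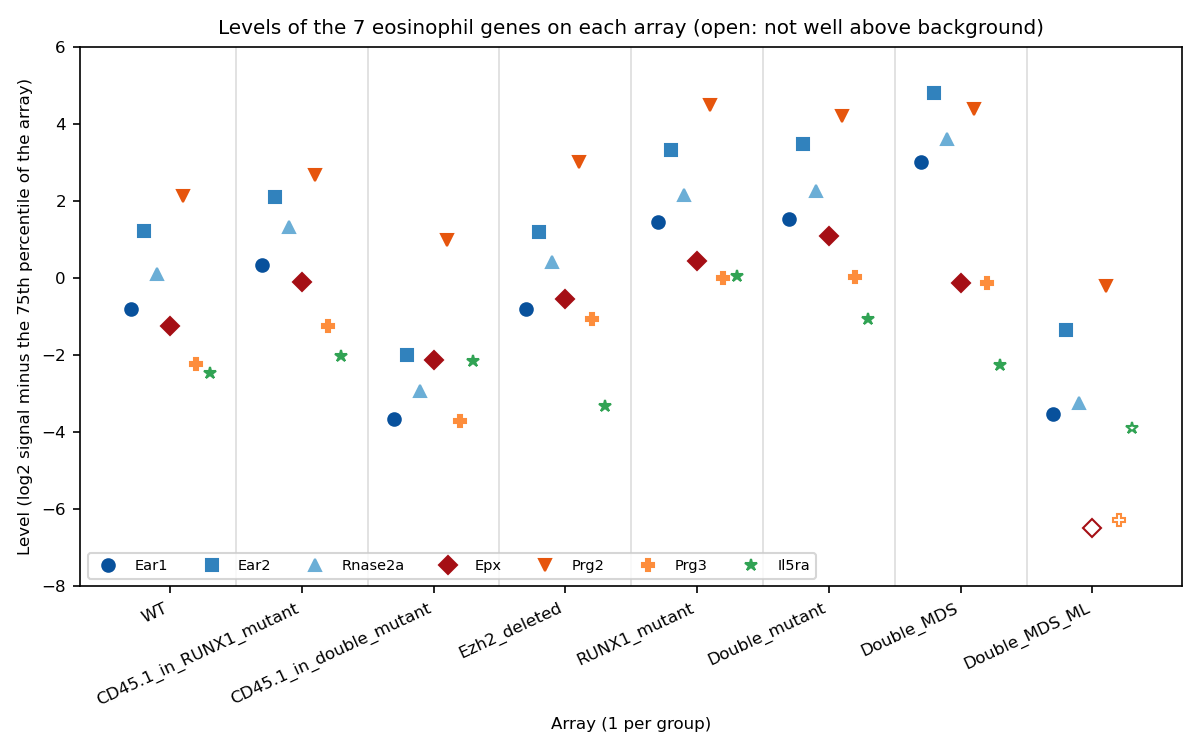
Level of each of the 7 genes (log2 signal relative to the array's 75th percentile, vertical axis) on the 8 arrays (horizontal axis, 1 array per group; Ezh2_deleted is Ezh2Δ/Δ, RUNX1_mutant is RUNX1S291fs). Open symbols are not well above background. All 7 genes sit higher on RUNX1_mutant and Double_mutant than on the 4 other month 4 arrays, and 3 of the 7 on Double_MDS_ML are open symbols.

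The first question is what RUNX1S291fs cells show before disease. In RUNX1S291fs minus WT, across slides, all 7 genes were more than 2-fold higher, by 1.70 (Epx) to 2.53 (Il5ra) with a median of 2.23. In that pair 8.57% of 13978 measured genes passed 2-fold. WT and both competitor arrays, all wild-type, spanned more than the gene's own difference for Ear1 (3.99), Ear2 (4.1), Rnase2a (4.27), Epx (2.01) and Prg3 (2.49). They spanned less than it for Prg2 (1.7) and Il5ra (0.45). In the double mutant minus WT, all 7 were again more than 2-fold higher, by 1.40 (Il5ra) to 2.34 (Epx), with a background of 10.6%. Other granulocyte genes were higher in these pairs too. Late neutrophil granule genes passed 2-fold in 10 of 10 measured for RUNX1S291fs minus WT (median 1.94) and in 11 of 11 for the double mutant minus WT (median 5.09). Primary granule genes did in 3 of 10 and 10 of 10. Mast cell and basophil genes did in 12 of 12 (median 2.17) and 11 of 11 (median 4.94). The gap between the lower of those carrier arrays and the highest of the other 4 month 4 arrays ran from 0.56 for Epx to 1.21 for Ear2, 7 of 7 genes, and 7.97% of 14608 measured genes had both carrier arrays above the others. The same 7 of 7 were found with normexp, quantile and detected-probe scaling and in the authors' series table. Since the genes were chosen with these levels in view, the counts describe them and support nothing further.

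RUNX1S291fs and both competitor arrays share slide 2 with Ezh2Δ/Δ, and within that slide all 7 genes were higher in RUNX1S291fs than in the other 3. The double mutant and WT share slide 1, and all 7 were higher in the double mutant there.

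With Ezh2 deletion added to RUNX1S291fs, none of the 6 granule genes passed 2-fold. Double mutant minus RUNX1S291fs, across slides, ran from -0.27 (Prg2) to 0.64 (Epx) over the 6 granule genes. Il5ra was lower by 1.13 in that pair, where 8.48% of genes were lower by 2-fold or more. Ezh2 deletion alone, against WT, gave a median of 0.32, 1 of 7 more than 2-fold higher (Prg3) where 7.82% of genes were; this pair crosses slides. Double mutant minus Ezh2Δ/Δ, also across slides, had all 7 higher, by 1.1 to 2.33, with a background of 10.9%. In each of these pairs slide and genotype cannot be told apart.

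Wild-type competitors sorted from marrow of the same group of mice had lower levels of all 7 genes than the RUNX1S291fs carriers, by unequal amounts; the labels do not say whether the same animals gave both. RUNX1S291fs minus the competitors from RUNX1S291fs marrow had 5 of 7 past 2-fold, by 0.56 (Epx) to 2.08 (Il5ra), with a background of 8.74%. This pair shares slide 2, and its count was 4 with normexp and 6 with the percentile over detected probes. The double mutant minus the competitors from double-mutant marrow had all 7 past 2-fold, by 1.09 (Il5ra) to 5.48 (Ear2, 44.8-fold), with a background of 9.26%, across slides. The competitors differed from one another: those of RUNX1S291fs marrow exceeded those of double-mutant marrow in all 7, by 0.14 (Il5ra) to 4.27 (Rnase2a), 6 past 2-fold against 9.37% of genes, on 1 slide and with both wild-type. In that pair late neutrophil genes were more than 2-fold higher in 9 of 9 (median 2.99), primary granule genes in 8 of 10 (median 1.74) and monocyte genes in 6 of 7 (median 1.67), and their part in the difference was not tested. Against WT, RUNX1S291fs-marrow competitors were higher by 0.45 to 1.22, 3 of 7 past 2-fold, where 11.3% of genes were; the count was 1 (Rnase2a) with normexp and 0 with the percentile over detected probes. Double-mutant-marrow competitors were lower than WT by 0.87 to 3.21 for the 6 granule genes, 5 of 7 past 2-fold, where 2.07% of genes were; Il5ra was higher by 0.31.

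The moribund mice went opposite ways for the ribonucleases. In the MDS mouse minus the double mutant, Ear1, Ear2 and Rnase2a were higher by 1.49, 1.31 and 1.33, Epx and Il5ra lower by 1.22 and 1.18, and Prg2 and Prg3 differed by 0.17 and -0.17. With the percentile taken over detected probes, Epx (-0.93) and Il5ra (-0.89) fell inside 2-fold, and with normexp Il5ra did (-0.61). Late neutrophil granule genes were more than 2-fold lower in 2 of 11 and primary granule genes in 8 of 10. Among all measured genes of this pair, 10.6% were higher past the 2-fold line and 19.9% were lower past it. In the MDS/ML mouse all 7 were lower than in the double mutant, with differences of -5.06 for Ear1 (33.3-fold), -4.85 for Ear2, -5.52 for Rnase2a (45.9-fold) and -4.41 for Prg2. Epx was at least 41.8-fold lower and Prg3 at least 19.9-fold, since their signals there were not well above background and were raised to the array's floor. Il5ra was not well above background either, but its own signal lay above that floor and was used. Its 7.1-fold is thus the measured difference, with a spot error of 22.6% on the MDS/ML array, and is uncertain. In this pair 15.2% of genes were past the 2-fold line in that direction. The MDS/ML array is the only 1 on its slide, and the MDS and MDS/ML cells come from 1 mouse each. In the same pair, 11 of 11 late neutrophil, 10 of 10 primary granule and 9 of 11 mast cell and basophil genes were also more than 2-fold lower, and the part of these cell types in the result was not tested.

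**Figure D2:**
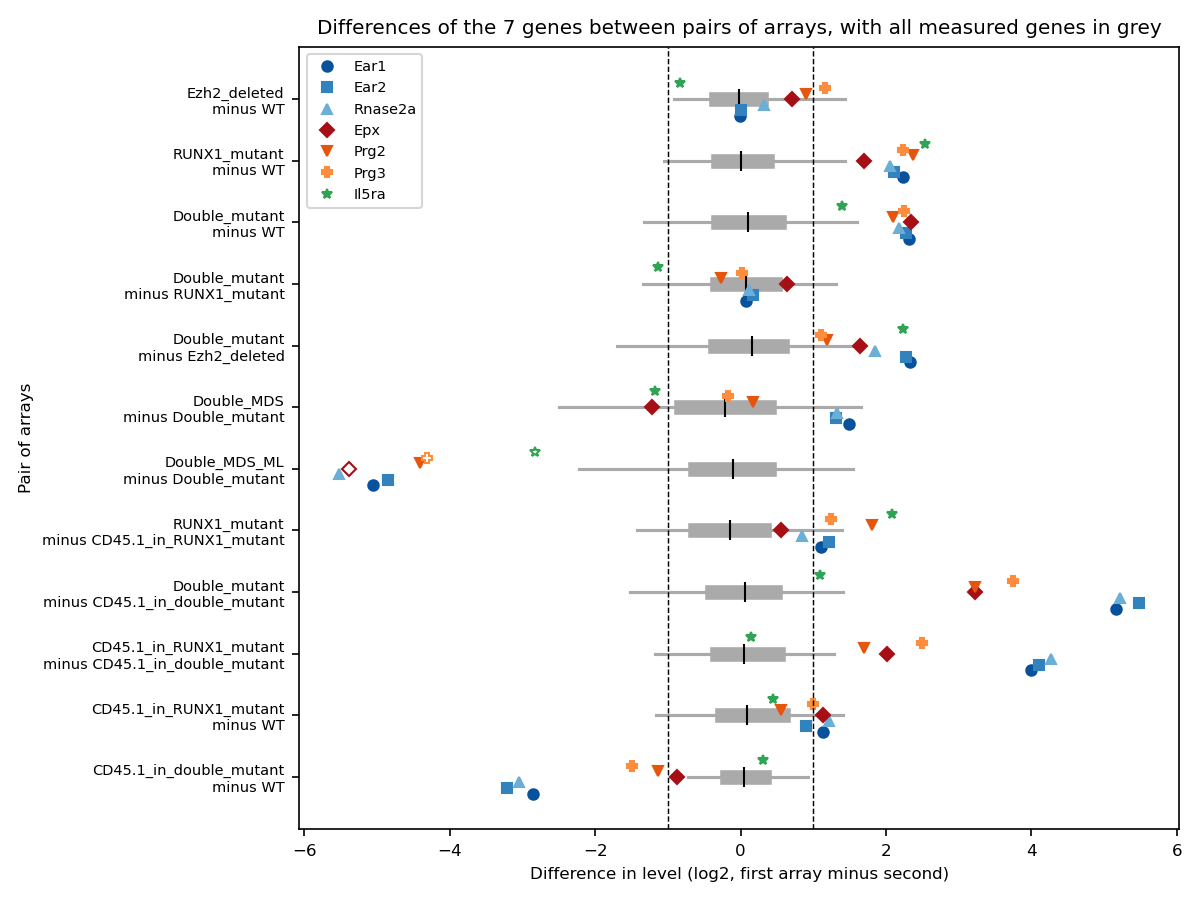
Differences in level (log2, first array minus second, horizontal axis) for 12 pairs of arrays. Coloured symbols are the 7 genes. Open ones rest on a value not well above background and are bounds, except Il5ra, shown as measured. Grey bars span the 5th to 95th (thin) and 25th to 75th (thick) percentiles of all measured genes with their median as a tick. Dashed lines mark 2-fold. The 7 genes lie right of 2-fold in RUNX1_mutant and Double_mutant minus WT and left of it in Double_MDS_ML minus Double_mutant.

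Among themselves, over the 8 arrays, the 21 pairs of genes had Pearson correlations from 0.56 to 1.00, with a median of 0.90. The ribonucleases correlated at 0.99 to 1.00 and Prg3 at 0.97 with both Prg2 and Epx, while Il5ra reached 0.56 to 0.72 with the others. Each granule gene other than Epx correlated at 0.94 to 0.98 with the mean of the other 6, Epx at 0.88 and Il5ra at 0.66. The points share their arrays.

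**Figure D3:**
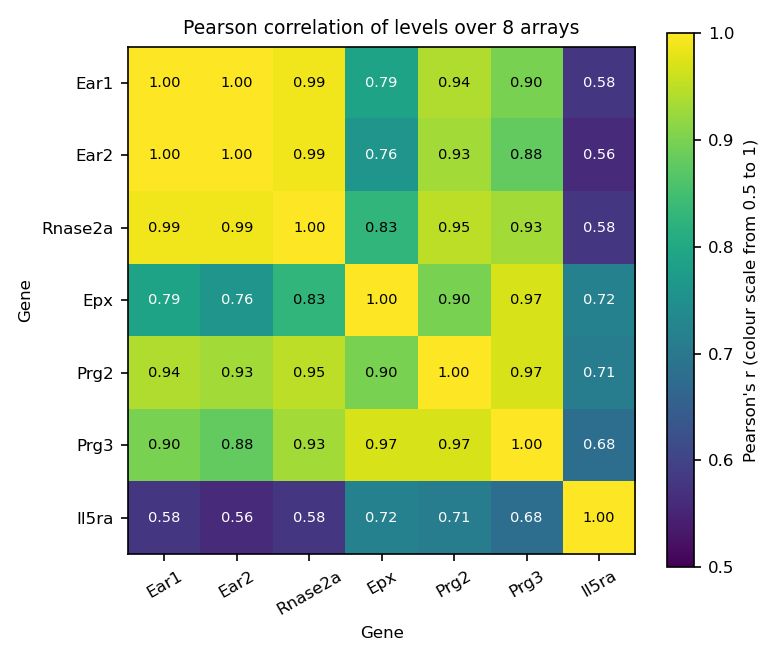
Pearson correlation of levels over the 8 arrays for each pair of the 7 genes (both axes; the colour runs from 0.5 to 1). The 3 ribonucleases form a block at 0.99 to 1.00, and the Il5ra row is lowest, at 0.56 to 0.72.

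The genes most like the mean pattern, of 13546 compared over 8 arrays, were 2 more ribonucleases: Ear6 at 0.974 and Ear10 at 0.952. The mean pattern itself includes Ear1, Ear2 and Rnase2a, and whether the probes of these relatives read one another's transcripts was not checked. Ear6 was at 1.07 in both RUNX1S291fs and the double mutant, 1.86 in MDS, -0.69 in WT and -2.34 in MDS/ML, and Ear10 followed it from 2.59 in MDS to -3.65 in double-mutant-marrow competitors. Others among the 10 most alike were Olfr1211 (0.952), Sft2d3 (0.948), Skint9 (0.941), Ccdc169 (0.937), Sirpb1a (0.936), Egfr (0.929) and Zbtb49 (0.929). Olfr1211 was well above background on only 3 arrays, and Sirpb1a and Egfr on only 4 each, so their correlations rest partly on dim values. Several of these vary little: Sft2d3 ranged from -0.01 to 0.65.

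Other genes of the ribonuclease A family, the eosinophil receptor and effector genes and the regulators of eosinophil fate were tested in 1 additive limma fit with terms for Ezh2 deletion, RUNX1S291fs and moribund stage. Of 51 listed genes, 48 had a probe and 42 were tested among 13553 genes. The shares of all genes called are at an adjusted p under 0.05. How many of all genes had an unadjusted p under 0.05 was not counted for this fit, so the unadjusted counts have no share beside them. For Ezh2 deletion 0 of the 42 passed an adjusted p of 0.05 (4 had an unadjusted p under 0.05), with 0.0% of all genes called. For RUNX1S291fs 0 of the 42 passed (5 unadjusted), with 0.0148% of all genes called. For the moribund stage 2 of the 42 passed, both lower, and 15 had an unadjusted p under 0.05, with 1.84% of all genes called. They were Rnase4 (-3.90, SE 0.55, limma adjusted p = 0.0204) and Ang (-2.89, SE 0.43, limma adjusted p = 0.026), secreted ribonucleases outside the eosinophil group. Neither gene was well above background on the MDS or the MDS/ML array. The fit took those dim values as measured, so the size of each effect is uncertain. Both calls were lost with slide as a block, and without WT, the double mutant, the MDS mouse or the double-mutant-marrow competitors the count was 0; without the MDS/ML mouse it was 1. A limma fit of carriers minus competitors with marrow as the pair (2 pairs, 1 residual degree of freedom) was chosen after seeing the data. It called 0 of the 42 and 0.0% of all genes. An unadjusted p under 0.05 was found for 4 of the 42 and for 565 of the 13553 genes.

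By role, the other ribonucleases with a measured value numbered 9, and 2 (Ear6, Ear10) had both month 4 RUNX1S291fs arrays above the others, where 7.97% of all measured genes had; Rnase2b, Rnase1 and Rnase9 were not well above background on any array. Of 14 measured receptor and effector genes, 5 did: Csf2rb, Csf2rb2, Il1rl1, Alox5 and Ltc4s. Csf2rb encodes the beta chain shared with the interleukin 5 receptor, and Il1rl1 the interleukin 33 receptor. Alox5 and Ltc4s are both of leukotriene synthesis. Il1rl1 read -1.73 in WT, -1.81 in Ezh2Δ/Δ, 2.20 in RUNX1S291fs, 3.63 in the double mutant, 5.05 in MDS, 0.43 in MDS/ML, -0.21 in RUNX1S291fs-marrow competitors and -0.95 in double-mutant-marrow competitors. In the fit its RUNX1S291fs term was 4.07 (SE 1.25, limma adjusted p = 0.498). Of 20 regulators, Cebpb and Spi1, which encodes PU.1, had both carrier arrays above the others, a share near the 7.97% of all genes. Gata1, which drives the eosinophil fate, ranged from 1.64 to 3.01 over the 8 arrays. For RUNX1S291fs the median fitted term was 0.04 over the tested ribonucleases, 0.96 over the receptor and effector genes and 0.61 over the regulators, beside 0.03 over all genes tested. For the moribund stage these medians were -1.65, -0.85 and -0.89, beside -0.13.

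Markers of other cell types also differed between the arrays, and their part in the result was not tested. Of 12 measured mast cell and basophil genes, 9 had both month 4 RUNX1S291fs arrays above the others, where 7.97% of all measured genes had. Among the 9 was Cpa3, the mast cell carboxypeptidase, at 6.76 in RUNX1S291fs and 6.39 in the double mutant against 1.45 in WT. Cpa3 had a RUNX1S291fs term of 4.73 (SE 0.51, limma adjusted p = 0.0843). The mean of the mast cell and basophil list ran from -2.81 in WT to 1.38 in the double mutant, and was -2.7 in MDS/ML. Unlike the 7 genes and most of its own list, Cpa3 was still at 6.85 in MDS/ML. Of 11 genes of that list measured in MDS/ML minus the double mutant, 9 were more than 2-fold lower. Late neutrophil granule genes, 11 with a probe, had 0 with both carriers above the others; their mean was 2.37 in Ezh2Δ/Δ, 0.43 in RUNX1S291fs, 3.70 in the double mutant and -3.93 in MDS/ML. The highest of the other month 4 arrays in that list was Ezh2Δ/Δ, where 11 of 11 were more than 2-fold above WT, beside 7.82% of all measured genes. Over the 8 arrays S100a9, a calprotectin subunit, correlated with the mean pattern of the 7 genes at 0.89 (rank 22 of 13546), and Retnlg, Camp and S100a8 at 0.88 to 0.89 (ranks 29 to 35). Primary granule genes also had 0 of 10, with means from 3.49 in MDS/ML to 8.21 in the double mutant. In the moribund fit, Tpsb2, a mast cell tryptase, was called lower (-4.08, SE 0.74, limma adjusted p = 0.0476), as was Ly6a (-2.26, SE 0.38, limma adjusted p = 0.0368). Without the double-mutant array, 0 of the 13553 genes were called for this stage.

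**Figure D4:**
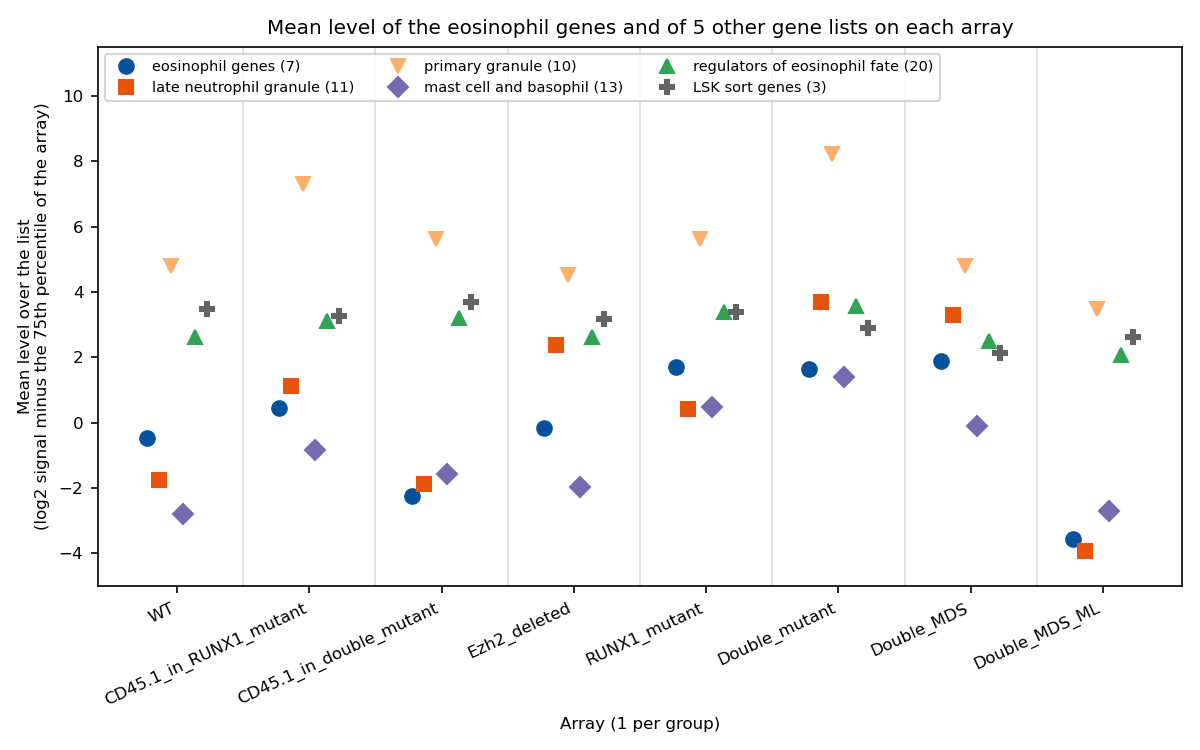
Mean level (log2 signal relative to the array's 75th percentile, vertical axis) of the 7 eosinophil genes and of 5 other gene lists on each array (horizontal axis; the number of genes with a probe in brackets). Each list is to be followed across arrays: the eosinophil mean is highest on Double_MDS, at 1.89, and lowest on Double_MDS_ML, at -3.57, where the late neutrophil mean is -3.93.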

How the data were processed

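RNA (20 ng of total RNA for each array, labelled with Cy3) was hybridised to 8 Agilent 1-colour arrays. Per the file headers, the deposited intensity values are processed signals from Agilent Feature Extraction 10.7.1.1 (design 028005). The authors' deposited series table holds the same signal divided by 1 factor per array. Levels are log2 intensity minus the array's 75th percentile, computed here from the deposited intensities. Probes were named through transcript accessions in the RefSeq table (27235 of 55681 probes, 20660 genes); where a gene had several probes, the brightest on average stood for it. Pairs of arrays were described with a 2-fold line and no test, since each group has 1 array, and a value not well above background was taken as the higher of itself and that array's floor, the lowest signal there that passed the background call. For list genes only, limma 3.58.1 (R 4.3.3; lmFit, eBayes, Benjamini-Hochberg adjustment) was fitted over 13553 genes that passed the background call on 3 or more arrays, with additive terms and 4 residual degrees of freedom; its p-values measure only the spread between these arrays, whose cells were pools or single mice. The fit code was also run on simulated data with known effects and less noise than the listed genes have, which checks the code and not the power here. The text names the 7 genes, listed genes by role and the 10 genes most correlated with their mean pattern, of which 1 is not reported here. The members and lists were chosen with earlier results of these data known. The mean-signal column planned for normexp was not in the files read, so the median-signal column was used. Alternatives were normexp (offset 50), quantile scaling, a percentile over detected probes, all probes of a gene, measured dim values, the series table, other dim-probe filters, slide as a block, month 4 arrays only, each array left out, carriers paired with competitors by marrow, and Spearman correlation.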

Additional observations from a re-analysis of the deposited data

Results flagged for a closer look

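The 2 moribund double-mutant mice differed from the month 4 double mutant in opposite directions for the ribonuclease genes. Ear1 was higher by 1.49 (log2) in the MDS mouse, and its difference was -5.06 in the MDS/ML mouse. Ear2 gave 1.31 and -4.85, and Rnase2a gave 1.33 and -5.52. Each group is 1 array, so the difference between the mice was not tested, and the pairs share the double-mutant array.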

How the results depend on the processing

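The median difference of the 7 genes kept its direction and its side of 2-fold in all 12 pairs under the 6 other settings run, with exceptions in 2 pairs. The near-zero double mutant minus RUNX1S291fs median ran from -0.08 to 0.07. The median of RUNX1S291fs minus the competitors from RUNX1S291fs marrow was 1.0 with normexp, on the 2-fold line after rounding. The widest ranges were 1.56 to 2.49 for competitors of RUNX1S291fs against double-mutant marrow and -5.06 to -3.83 for MDS/ML minus the double mutant. Of 84 single-gene differences, 9 fell inside 2-fold with normexp, 8 with the detected-probe percentile and 1 with quantile scaling. The median of all genes in MDS minus the double mutant was -0.22, and -0.15 with normexp, -0.12 with quantile scaling and 0.07 with the detected-probe percentile. The pathway count for the moribund stage, 2, became 0 when every one of the 8 arrays had to pass the background call, 1 with no filter and 0 with slide as a block, and ran from 0 to 3 with 1 array left out. Over all genes its 250 calls became 151 with the stricter filter, 149 with none, 70 with slide as a block and 0 to 381 with 1 array left out; the 2 RUNX1S291fs calls ran from 0 to 10. Of the 10 genes most alike, 4 were shared with Spearman ranks, and 2 without the MDS/ML array, a setting chosen after seeing the data; so was the rescaling of the month 4 comparison. No paired analysis was possible by replicate number because every group has 1 array, all labelled replicate 1; pairing by marrow, also chosen after seeing the data, called 0 of the 42 pathway genes. The number of arrays limits the precision, and dim values give bounds or uncertain differences only.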
